A study of Mus musculus with 12 samples.

Results

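The genes described here encode enzymes and carriers of fatty acid beta-oxidation in mitochondria and peroxisomes, measured by messenger RNA sequencing in C2C12 cells. They were taken by name, as 36 rows of a deposited count table of 54532 genes. The 36 comprise 20 genes of mitochondrial enzymes, 12 of peroxisomal enzymes and carriers, and 4 whose products are placed in both organelles or whose place is not settled. C2C12 is an established mouse line derived from skeletal muscle, and the samples are labelled as myoblasts, the dividing precursors of muscle fibres. Confluent dishes were exposed for 24 h to PFOS (perfluorooctanesulfonate, a perfluorinated compound that persists in the environment), and the 3 groups are the doses of 0, 2 and 6 µM with 4 libraries each, 12 in all. Both comparisons with 0 µM share the same 4 libraries at 0 µM. All groups are the same line with no further agent or allele named, so they represent 1 cell line and not muscle tissue. The labels do not tell whether replicates were grown as independent cultures. The p-values therefore cover the variation among these 12 libraries, part of which may be technical.

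Beta-oxidation shortens an acyl-CoA by repeating dehydrogenation, hydration, a further dehydrogenation and thiolysis, and each round releases acetyl-CoA. In mitochondria the first step is taken by acyl-CoA dehydrogenases that differ in the chain length they prefer, and their electrons pass through electron transfer flavoprotein to the respiratory chain. Peroxisomes start with oxidases that pass electrons to oxygen, and they handle very long, branched and dicarboxylic chains that are then handed on. Auxiliary isomerases and reductases rearrange the double bonds of unsaturated chains, and several enzymes of the mitochondrial pathway also serve the breakdown of branched-chain amino acids. Many genes of both pathways are known targets of the peroxisome proliferator-activated receptors (PPARs), which are activated by fatty acids.

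Library totals were between 30206155 and 50351082 counts, and 36 of 36 members passed the filter on low counts, among 16038 genes tested. Genes detected were 20470 to 21040 a library at 0 µM, 20377 to 21171 at 2 µM and 19292 to 20110 at 6 µM. The TMM factors that scale the libraries were 1.01 to 1.02 at 0 µM and 0.984 to 0.992 at 6 µM. Neither measure overlapped between 0 and 6 µM, and their part in the results was not tested. The root mean square deviation from the mean of the dose was 0.402 to 0.424 (log2) in 0 µM replicate 1 and 6 µM replicates 2 and 3 and 0.339 to 0.390 in the other 9 libraries, and counts without these 3 libraries are given beside the results. Summed over 8 myoblast markers, the level was 898 ± 47.2, 881 ± 7.84 and 881 ± 23.5 CPM (SD, n = 4) at 0, 2 and 6 µM, where CPM is the read count scaled to a common library size. Of these 8 genes 1 was higher and 2 were lower at 6 than at 0 µM by edgeR. DESeq2, limma-voom and an unadjusted p under 0.05 in edgeR each gave 1 higher and 3 lower. Over all tested genes 4.58% were higher and 3.66% lower in this comparison (edgeR). Ncam1, an adhesion molecule, was higher at 6 than at 0 µM (log2 0.17, adjusted p = 0.0328), and Myod1, the myogenic determination factor, was lower (log2 -0.38, adjusted p = 0.00333, edgeR's quasi-likelihood test). Summed over 10 markers of differentiated muscle, it was 75.9 ± 7.35, 58.2 ± 7.39 and 48.0 ± 5.25 CPM. Of the 8 differentiated-muscle markers tested, 4 were lower at 6 than at 0 µM and 0 were higher by edgeR, with 0 higher at an unadjusted p under 0.05 and by DESeq2 and limma-voom. Among the 4 were Myh1, a myosin heavy chain, with a log2 fold change of -0.74 (adjusted p = 3.13e-05), and Myog, a differentiation factor, with -0.82 (adjusted p = 0.00172). The fall of these markers moved with dose alongside the changes described here, and their part in the results was not tested. Fewer cells of a type and less RNA per cell cannot be told apart in such bulk libraries. Markers of adipocytes and hepatocytes summed to at most 0.221 and 0.208 CPM in any library, with Adipoq, Retn, Ttr and Serpina1a at 0 counts throughout. Of 5 macrophage and 5 endothelial markers, only Cd14 and Cdh5 passed the filter. The lists summed to between 6.58 and 10.5 CPM for macrophage markers and between 4.50 and 7.17 CPM for endothelial markers.

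At 0 µM the genes covered a wide range of levels, given here as CPM per kilobase (kb) of the principal transcript. Etfa, the alpha subunit of electron transfer flavoprotein, stood highest at 96.3 ± 5.70 CPM per kb (SD, n = 4). It was followed by the thiolase gene Acaa2 at 86.7 ± 3.24 and the hydratase gene Echs1 at 82.8 ± 3.35 CPM per kb, which did not differ beyond their spread. Among the acyl-CoA dehydrogenases of straight chains the level was 73.5 ± 0.767 for the medium-chain gene Acadm and 53.9 ± 2.78 for the long-chain gene Acadl. It was 33.2 ± 1.05 for the very-long-chain gene Acadvl and 20.7 ± 2.75 CPM per kb for the short-chain gene Acads. Of the peroxisomal genes, Scp2, whose locus encodes the thiolase SCPx and sterol carrier protein 2, was highest at 56.9 ± 3.40 CPM per kb. The next was the cofactor carrier gene Slc25a17 at 51.3 ± 2.00 CPM per kb. The lowest 3 of the 36 were also peroxisomal. Abcd2, an importer of very-long-chain acyl-CoA, stood at 0.638 ± 0.123 CPM per kb, the lyase gene Hacl1 at 0.224 ± 0.091 and Ehhadh, the L-bifunctional enzyme, at 0.142 ± 0.039.

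The order depends on the length used, because the table's gene length is the union of all exons for 34 of the 36 genes. With that length, an alternative chosen after the data were seen, Echs1 stood at 15.6, Acadm at 38.5 and Slc25a17 at 31.1 CPM per kb. Acadl, at 51.5, then stood above Acadm at 0 µM already. Acaa2 was then first of the 36 and Etfa second, and the 3 lowest genes were still Abcd2, Hacl1 and Ehhadh. At 6 µM Acaa2 reached 115 ± 5.73 CPM per kb of the principal transcript and Etfa 108 ± 3.85. Acadl reached 76.4 ± 2.44 and Ech1, a dienoyl-CoA isomerase, 72.8 ± 3.90 CPM per kb.

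**Figure D1:**
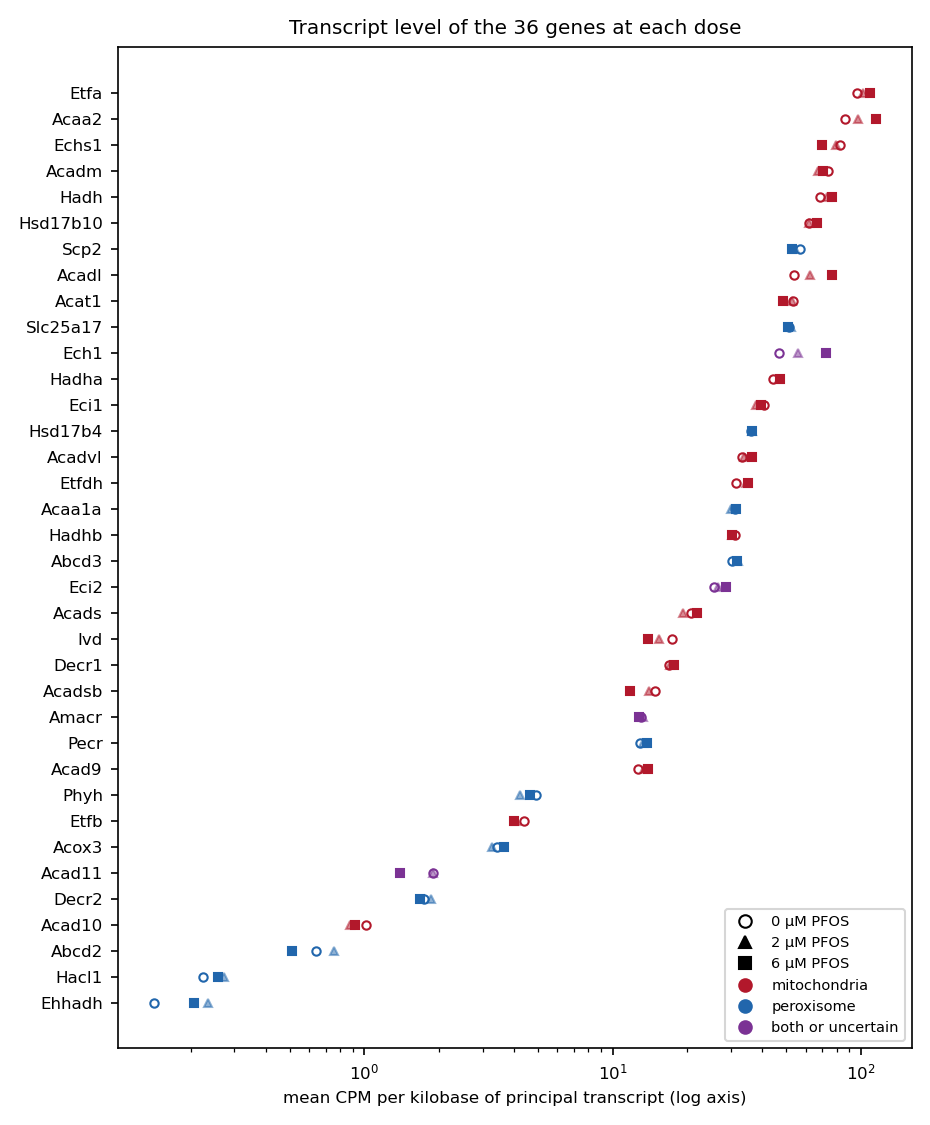
Mean level of each of the 36 genes at 0, 2 and 6 µM PFOS, in CPM per kilobase of the principal transcript on a log axis, ordered by the level at 0 µM and coloured by compartment; each symbol is the mean of 4 libraries. The genes span Ehhadh at 0.142 to Etfa at 96.3 CPM per kb at 0 µM. Among the genes called at 6 against 0 µM, the doses separate most visibly for Acadl, Ech1 and Acaa2. The means of Ehhadh (0.142, 0.235 and 0.207 CPM per kb at 0, 2 and 6 µM) and Abcd2 (0.638, 0.753 and 0.513), which were not called, also lie apart.

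Part of the 36 genes were called after exposure to PFOS, and a gene that was not called is not thereby shown to be unchanged. At 6 against 0 µM, 6 of the 36 genes were higher (Acadl, Acaa2, Ech1, Etfa, Hadh and Etfdh) and 3 were lower (Acadsb, Ivd and Echs1). This was 6 of 36 in a comparison where 4.58% of all tested genes were higher, and 3 of 36 where 3.66% were lower (edgeR's quasi-likelihood test, Benjamini-Hochberg adjusted p under 0.05 over 16038 genes, where 8.24% were called in either direction). At an unadjusted p under 0.05 in edgeR, 9 of the 36 were higher and 6 lower at 6 against 0 µM. At 2 against 0 µM, 2 of the 36 genes were higher, Acadl and Ech1, where 1.61% of all tested genes were higher. By edgeR 0 of the 36 were lower at 2 µM, where 0.742% of all genes were, with 2 lower at an unadjusted p under 0.05, 1 lower by DESeq2 (Ivd) and 0 by limma-voom. Either direction was called for 2.35% of all genes. In the direct test of 6 against 2 µM, 3 genes were higher (Acadl, Acaa2 and Ech1), where 0.561% of all genes were higher, and 1 was lower (Acadsb), where 0.549% were lower and 1.11% were called either way. Over all 36 the median log2 fold change was 0.02, 0.04 and 0.04 in the comparisons of 2 with 0, 6 with 0 and 6 with 2 µM, against -0.01, -0.02 and -0.0046 over all tested genes.

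The smaller changes depended on single libraries. The 6 genes higher at 6 against 0 µM became 3 without 0 µM replicate 3, 0 µM replicate 4, 6 µM replicate 3 or 6 µM replicate 4, and 3 without the 3 deviating libraries together. Acadl, Acaa2 and Ech1 were called in each of those fits, and Etfa, Hadh and Etfdh were lost. The 2 genes higher at 2 against 0 µM, Acadl and Ech1, became 0 without 0 µM replicate 3, 2 µM replicate 1 or 2 µM replicate 4, and 1 without 0 µM replicate 4 or 2 µM replicate 2. Ivd was called lower at 2 against 0 µM without 0 µM replicate 1 (adjusted p = 0.048, edgeR), and Echs1 at 6 against 2 µM without 6 µM replicate 2 (adjusted p = 0.046). The 3 genes lower at 6 against 0 µM, Acadsb, Ivd and Echs1, were lower in each of the 21 alternatives.

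The calls were divided unevenly between the compartments. Of the 20 mitochondrial genes 5 were higher and 3 lower at 6 against 0 µM, with a median log2 fold change of 0.07. In that comparison 4.58% of all tested genes were higher and 3.66% lower (edgeR). Of the 12 peroxisomal genes 0 were called in any of the 3 comparisons by edgeR, DESeq2 or limma-voom. By edgeR 2.35%, 8.24% and 1.11% of all tested genes were called at 2 against 0, 6 against 0 and 6 against 2 µM. For so few genes, 0 of 12 is near these shares. At an unadjusted p under 0.05 in edgeR, 0 of the 12 were past it for 2 against 0 µM, 1 was lower for 6 against 0 µM (Scp2) and 1 was lower for 6 against 2 µM (Abcd2). Their median log2 fold change was 0.03, 0.01 and -0.03 for 2 against 0, 6 against 0 and 6 against 2 µM, and the second of these was -0.0046 with upper-quartile scaling. Summed over the 20 mitochondrial genes the level was 1747 ± 40.4, 1777 ± 28.5 and 1829.7 ± 27.7 CPM at 0, 2 and 6 µM. Summed over the 12 peroxisomal genes it was 541 ± 14.5, 541 ± 8.44 and 537 ± 6.65 CPM. At 6 against 0 µM the CPM of the doses did not overlap for 12 of 36 genes, 10 of them mitochondrial, 0 peroxisomal and 2 of both or uncertain place, where 12.5% of all tested genes did not overlap. At 2 against 0 µM this held for 7 of 36, 6 of them mitochondrial and 0 peroxisomal, where 8.37% of all genes did not overlap. At 6 against 2 µM it held for 10 of 36, 5 mitochondrial, 2 peroxisomal and 3 of both or uncertain place, where 8.6% of all genes did not overlap. The difference between the compartments was not tested, since the genes of a list are not replicates.

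**Figure D2:**
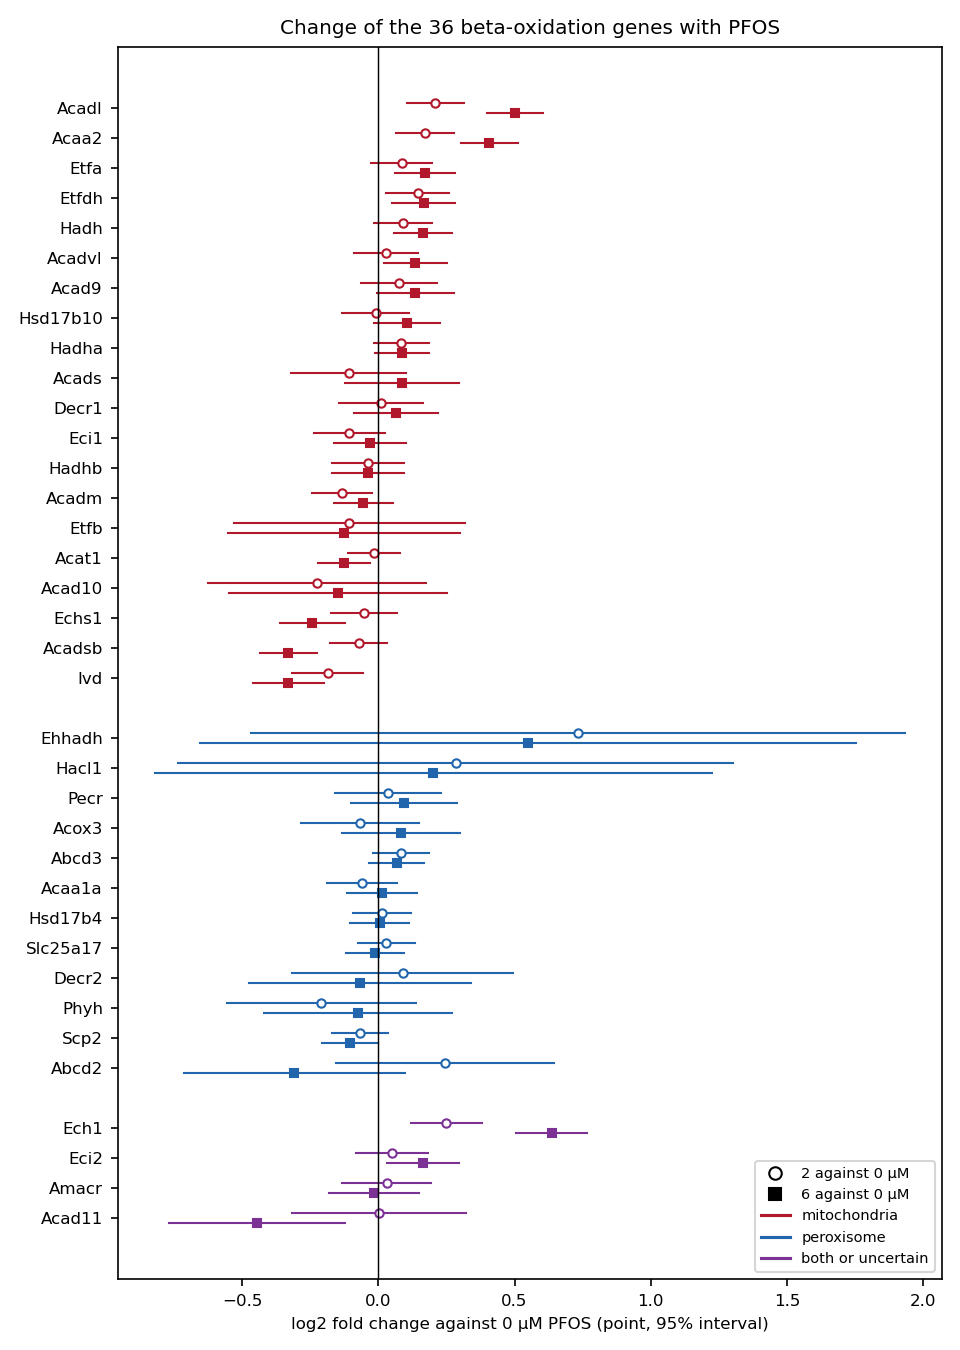
Log2 fold change against 0 µM of each of the 36 genes, grouped by compartment and ordered by the value at 6 µM; circles show 2 and squares 6 µM, and bars are 95% intervals from edgeR's fit over 12 libraries. Acadl, Acaa2 and Ech1 lie to the right of 0 at both doses and Acadsb, Ivd and Echs1 to the left at 6 µM, while the wide bars of Ehhadh, Hacl1 and Abcd2 belong to genes under 10 CPM.

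Promoter sequences are shown for 2 genes that were higher (Acadl and Ech1) and 2 that were lower (Echs1 and Acadsb) at 6 against 0 µM, so that the letters upstream of both kinds can be compared. Each run is the 250 bases before the RefSeq transcript start, 5′ to 3′ on the strand of the gene, from RefSeq annotation of GRCm38.p6. Capitals mark exact GC boxes, GGGCGG or its reverse complement CCGCCC, and in Echs1 also a 13-base stretch that resembles the PPAR element. The runs lie at chr1:66863310-66863559 (minus strand) for Acadl, chr7:28825088-28825337 (plus) for Ech1, chr7:140116422-140116671 (minus) for Echs1 and chr7:131410351-131410600 (plus) for Acadsb. In the deposited table the transcribed regions of Ech1 and Echs1 begin 121 and 55 bases upstream of the RefSeq starts used here.
Acadl: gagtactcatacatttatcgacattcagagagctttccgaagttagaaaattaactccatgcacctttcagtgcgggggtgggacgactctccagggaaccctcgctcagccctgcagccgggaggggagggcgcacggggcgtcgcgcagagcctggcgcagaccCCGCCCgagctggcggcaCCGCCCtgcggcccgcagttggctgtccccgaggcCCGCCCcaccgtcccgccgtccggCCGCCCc
Ech1: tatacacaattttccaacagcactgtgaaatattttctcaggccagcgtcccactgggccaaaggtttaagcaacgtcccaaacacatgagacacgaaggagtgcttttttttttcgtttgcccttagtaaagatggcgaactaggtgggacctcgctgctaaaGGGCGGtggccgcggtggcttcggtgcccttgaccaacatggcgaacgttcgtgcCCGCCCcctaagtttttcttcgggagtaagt
Echs1: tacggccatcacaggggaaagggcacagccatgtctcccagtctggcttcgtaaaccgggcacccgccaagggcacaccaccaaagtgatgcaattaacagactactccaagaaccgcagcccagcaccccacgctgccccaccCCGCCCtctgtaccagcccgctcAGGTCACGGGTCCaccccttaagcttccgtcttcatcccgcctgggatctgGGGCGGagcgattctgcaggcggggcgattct
Acadsb: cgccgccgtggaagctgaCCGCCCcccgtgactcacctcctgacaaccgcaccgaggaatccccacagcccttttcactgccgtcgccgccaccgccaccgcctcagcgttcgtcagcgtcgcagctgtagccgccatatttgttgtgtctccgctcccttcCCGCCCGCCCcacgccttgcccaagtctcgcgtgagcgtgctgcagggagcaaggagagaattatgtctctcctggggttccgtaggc
The printed runs hold 4, 2, 2 and 3 GC boxes for Acadl, Ech1, Echs1 and Acadsb, so both kinds of gene carry them. Windows of 300 bases, from 250 before to 50 after the start, were found for 29 of the 36 genes, and Acaa2, which was called higher, had none. Some windows lie far from the gene start of the deposited table. The RefSeq starts of Eci2, Scp2, Acaa1a and Etfdh are 32952, 26451, 1618 and 733 bases downstream of it. A GC box on either strand was present for 22 of the 29 genes, against 35.7% of 32851 windows of all genes, and the median GC content was 60.5% in the members' windows and 52.7% in all windows. Among called genes whose sequence is not printed, Hadh and Etfdh (higher) had a GC box in their windows, while Etfa (higher) and Ivd (lower) had none. The PPAR element, a direct repeat written AGGTCANAGGTCA, was searched on both strands. With up to 2 mismatches it was found for 2 of 29 genes, Echs1 and Etfa, against 3.9% of all windows. With up to 1 mismatch it was found for 0 of 29, against 0.6% of all windows. The estrogen-related receptor element TCAAGGTCA was found for 0 of 29, against 0.4%. The half-site AGGTCA, which is part of both longer elements, was found for 5 of 29 genes, against 16.3%. In Echs1 the PPAR-like stretch starts 83 bases before the transcript start. These matches describe the letters of short windows and say nothing of binding.

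Long-chain oxidation in mitochondria begins with the dehydrogenases Acadl and Acadvl and continues on the trifunctional protein, whose subunits are encoded by Hadha and Hadhb. Of these 4 genes only Acadl was called. Acadl (ENSMUSG00000026003, chromosome 1, 66830839 to 66863277, minus strand, GRCm38 as in the deposited table) had 103, 110.1, 97.1 and 103 CPM in the 4 libraries at 0 µM. It had 123, 121, 116 and 117 CPM at 2 µM and 149.5, 144, 151 and 141 CPM at 6 µM. The 3 doses did not overlap and stood in rising order. Acadl was 1.16-fold higher at 2 than at 0 µM (log2 0.21, SE 0.046, adjusted p = 0.017), 1.42-fold higher at 6 than at 0 µM (log2 0.50, SE 0.046, adjusted p = 2.49e-07) and 1.23-fold higher at 6 than at 2 µM (log2 0.29, SE 0.046, adjusted p = 0.00111; edgeR's quasi-likelihood test). The call at 2 against 0 µM was lost without 0 µM replicate 3 (adjusted p = 0.069), 2 µM replicate 1 (0.051), 2 µM replicate 2 (0.058) or 2 µM replicate 4 (0.053), and the others held in every alternative.

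The other long-chain genes, Acadvl, Hadha and Hadhb, were not called. Acadvl had 71.9 ± 2.27, 73.3 ± 1.63 and 79.1 ± 5.005 CPM at 0, 2 and 6 µM (SD, n = 4). Its log2 fold change at 6 against 0 µM was 0.14 (SE 0.052, adjusted p = 0.116, edgeR). Its libraries at 6 µM all lay above those at 0 µM. Dvl2, a signalling gene on the opposite strand that overlaps it, held 82.8% as many counts as Acadvl, and its own log2 fold change was 0.0041 at 6 against 0 µM (adjusted p = 0.984). Hadha had 178 ± 8.67, 189 ± 7.47 and 189 ± 4.75 CPM and Hadhb 63.6 ± 2.76, 62.0 ± 3.92 and 62.0 ± 3.41 CPM at 0, 2 and 6 µM. Their log2 fold changes at 6 against 0 µM were 0.09 (adjusted p = 0.264) and -0.04 (adjusted p = 0.763), with 95% intervals of -0.01 to 0.19 and -0.17 to 0.09. The 2 subunit genes are arranged head to head on chromosome 5, with RefSeq starts 273 bases apart. The Hadha-to-Hadhb ratio at 6 µM was 1.09 ± 0.064 times its mean at 0 µM, and the libraries of the 2 doses overlapped.

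Medium-chain oxidation was represented by the dehydrogenase Acadm and the thiolase Acaa2, which catalyses the last step. Acaa2 (ENSMUSG00000036880, chromosome 18, 74779197 to 74806207, plus strand, GRCm38) had 138, 131, 129 and 127 CPM at 0 µM. It had 150.1, 155, 144 and 142 CPM at 2 µM and 179, 163, 182 and 173 CPM at 6 µM. The 3 doses did not overlap and rose in order. Acaa2 was 1.33-fold higher at 6 than at 0 µM (log2 0.41, SE 0.046, adjusted p = 5.51e-06) and 1.18-fold higher at 6 than at 2 µM (log2 0.24, SE 0.046, adjusted p = 0.00937, edgeR). Its log2 fold change at 2 against 0 µM was 0.17 (SE 0.047, adjusted p = 0.0546), and it passed the threshold in 8 of 21 alternatives, among them those without 0 µM replicate 1 (adjusted p = 0.026) or 6 µM replicate 2 (0.042). The call at 6 against 2 µM was lost without 2 µM replicate 4 (adjusted p = 0.060) or 6 µM replicate 3 (0.053).

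Acadm, the dehydrogenase of the same chain class, gave 151, 152, 149 and 149 CPM at 0 µM, 146, 140.3, 138 and 125 CPM at 2 µM and 144, 136, 151 and 148 CPM at 6 µM. All 4 libraries at 2 µM lay below those at 0 µM, and those at 6 µM overlapped with them. Its log2 fold change was -0.13 at 2 against 0 µM (adjusted p = 0.181) and -0.05 at 6 against 0 µM (adjusted p = 0.565, 95% interval -0.16 to 0.05, edgeR). Acadl was also set against other dehydrogenases in the same libraries. The Acadl-to-Acadm ratio at 6 µM was 1.47 ± 0.068 times its mean at 0 µM, and it was 1.27 ± 0.066 times that mean at 2 µM (SD, n = 4). The Acadl-to-Acadvl ratio was 1.29 ± 0.066 times its mean at 0 µM in the libraries at 6 µM, and 1.13 ± 0.029 times at 2 µM. Neither of these ratios overlapped between 0 µM and either PFOS dose. The Acadl-to-Acads ratio was 1.33 ± 0.146 times its mean at 0 µM in the libraries at 6 µM, which did not overlap with those at 0 µM. At 2 µM it was 1.246 ± 0.151 times that mean, and the libraries overlapped with those at 0 µM. These ratios show unequal change and not that the denominator stayed level.

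The short-chain genes moved in both directions. Echs1 (ENSMUSG00000025465, chromosome 7, 140105710 to 140116476, minus strand, GRCm38), the hydratase of short acyl-CoAs, also serves valine breakdown. It had 133, 131, 131 and 121 CPM at 0 µM, 127, 130.1, 115 and 125 CPM at 2 µM and 114, 117, 104 and 101 CPM at 6 µM. The libraries at 6 µM lay below all those at 0 µM, and those at 2 µM overlapped with both. Echs1 was 1.18-fold lower at 6 than at 0 µM (log2 -0.24, SE 0.053, adjusted p = 0.00551, edgeR), a call that held in each of 21 alternatives. The log2 fold change of Echs1 was -0.05 at 2 against 0 µM (adjusted p = 0.722) and -0.19 at 6 against 2 µM (adjusted p = 0.0908). Paox overlaps Echs1 on the opposite strand with 10.7% as many counts, and its log2 fold change at 6 against 0 µM was -0.09 (adjusted p = 0.687).

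Hadh, the dehydrogenase of the third step for short and medium chains, had 123, 132, 114 and 120.5 CPM at 0 µM, 129, 135, 125 and 132 CPM at 2 µM and 141, 134, 139 and 134 CPM at 6 µM. Every library at 6 µM lay above those at 0 µM. It was 1.12-fold higher at 6 than at 0 µM (log2 0.16, SE 0.047, adjusted p = 0.0352, edgeR). The call was lost in 8 of 21 alternatives, with an adjusted p between 0.052 and 0.137. They include the fits without 0 µM replicates 3 (0.137) or 4 (0.065) and without 6 µM replicates 1 (0.101), 3 (0.083) or 4 (0.052). Acat1, the acetoacetyl-CoA thiolase, which also serves isoleucine and ketone body breakdown, had 181 ± 9.85, 179 ± 4.15 and 166 ± 0.80 CPM at 0, 2 and 6 µM. Its 4 libraries at 6 µM were all lower than those at 0 µM, with a log2 fold change of -0.13 (95% interval -0.22 to -0.03, adjusted p = 0.071, edgeR). Acat1 was called lower without 0 µM replicate 4 (adjusted p = 0.017, edgeR) and by DESeq2 (0.039). In edgeR it was also called with upper-quartile scaling (0.046) and with a filter on a mean count of at least 50 (0.046). Acads had 38.7 ± 5.13, 35.9 ± 4.75 and 41.1 ± 3.31 CPM, and its doses overlapped (log2 0.09 at 6 against 0 µM, adjusted p = 0.652).

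**Figure D3:**
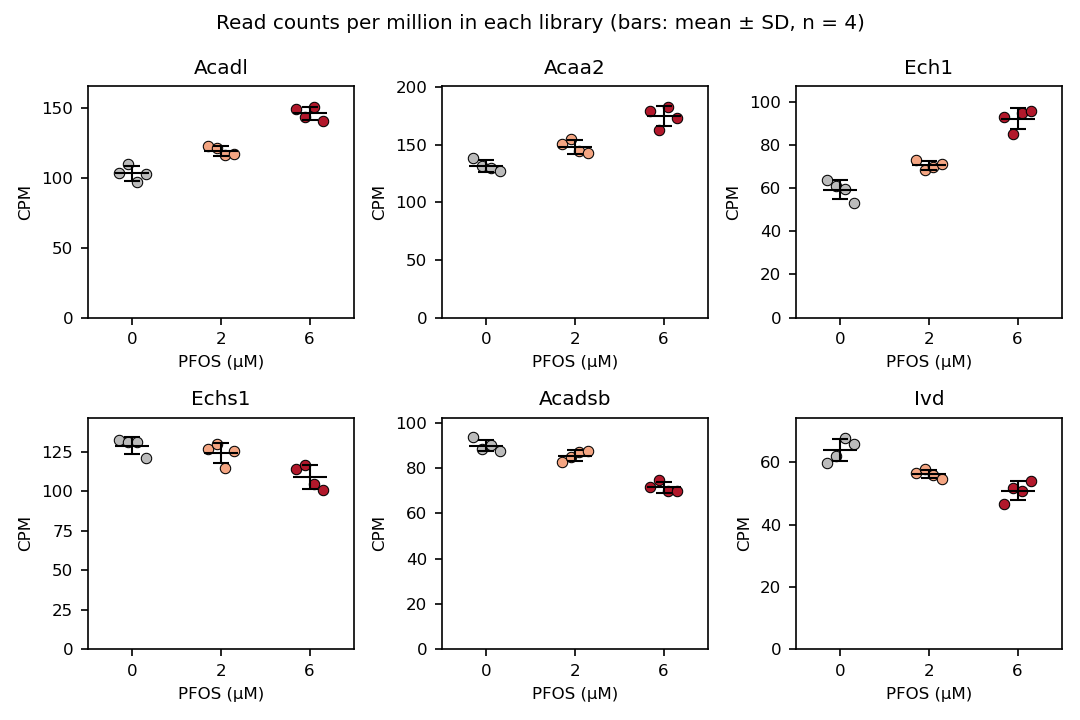
CPM in each library of the 3 genes with the highest fold changes among those called at 6 against 0 µM (Acadl, Acaa2 and Ech1) and of the 3 that were lower (Echs1, Acadsb and Ivd), at 0, 2 and 6 µM PFOS; points are libraries, bars the mean ± SD of 4. The doses do not overlap for Acadl, Acaa2, Ech1, Acadsb and Ivd, and for Echs1 the libraries at 2 µM overlap with both other doses.

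Of the 3 branched-chain genes Acadsb and Ivd were lower at 6 against 0 µM. They encode acyl-CoA dehydrogenases of the isoleucine and leucine pathways that share electron transfer flavoprotein with the fatty acid enzymes. Acadsb (ENSMUSG00000030861, chromosome 7, 131410601 to 131448944, plus strand, GRCm38) had 93.7, 88.6, 90.1 and 87.8 CPM at 0 µM, 82.8, 84.9, 87.3 and 87.5 CPM at 2 µM and 71.9, 75.0, 69.7 and 69.8 CPM at 6 µM. The 3 doses did not overlap, although the gap between 0 and 2 µM was small. Acadsb was 1.26-fold lower at 6 than at 0 µM (log2 -0.33, SE 0.047, adjusted p = 7.3e-05) and 1.2-fold lower at 6 than at 2 µM (log2 -0.26, SE 0.047, adjusted p = 0.0047, edgeR). Between 2 and 0 µM the log2 fold change of Acadsb was -0.07 (adjusted p = 0.526). Fgfr2, a receptor gene on the opposite strand whose region overlaps Acadsb, held 41.6% as many counts, and its log2 fold change at 6 against 0 µM was -0.22 (adjusted p = 0.0517). Such overlaps were read from the start and end of each gene, and shared exons were not looked up. The partner's counts are those of its whole gene. With no stated strand setting, it is not known whether such pairs share any reads.

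Ivd (ENSMUSG00000027332, chromosome 2, 118861954 to 118882909, plus strand, GRCm38) had 59.9, 62.1, 67.8 and 65.8 CPM at 0 µM. It had 56.5, 57.7, 55.9 and 54.6 CPM at 2 µM and 46.6, 51.8, 50.8 and 54.0 CPM at 6 µM. The 3 doses did not overlap and stood in falling order. Ivd was 1.26-fold lower at 6 than at 0 µM (log2 -0.33, SE 0.058, adjusted p = 0.000738, edgeR). The log2 fold change of Ivd was -0.19 at 2 against 0 µM (SE 0.057, adjusted p = 0.0964). The third gene of the class, Hsd17b10, a dehydrogenase of the isoleucine pathway, had 59.8 ± 2.68, 59.4 ± 2.03 and 64.3 ± 2.95 CPM, and its log2 fold change at 6 against 0 µM was 0.10 (adjusted p = 0.27). Summed over the 3, the level was 213.7 ± 1.30, 201 ± 1.67 and 187 ± 2.61 CPM at 0, 2 and 6 µM.

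Of 18 tested genes of branched-chain amino acid and propionate oxidation outside the 36, 0 were higher and 3 lower at 6 against 0 µM, where 3.66% of all genes were lower (edgeR). At an unadjusted p under 0.05 in edgeR 1 was higher, and neither DESeq2 nor limma-voom called any higher (0 each). Those named by the rule are Mcee, an epimerase of propionate breakdown, with a log2 fold change of -0.57 (SE 0.14, adjusted p = 0.0123), and Bcat2, the mitochondrial aminotransferase that begins branched-chain amino acid breakdown, with -0.28 (SE 0.069, adjusted p = 0.0146). The median over the list was -0.12, against -0.02 over all genes, and 15 of the 18 values were negative.

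Electron transfer from the dehydrogenases needs the subunits Etfa and Etfb and the membrane enzyme Etfdh. Etfa had 139.6, 142, 129 and 126 CPM at 0 µM, 144, 137, 136 and 151 CPM at 2 µM and 144, 152, 157 and 150.4 CPM at 6 µM. The libraries at 6 µM lay above those at 0 µM by a narrow margin. It was 1.13-fold higher at 6 than at 0 µM (log2 0.17, SE 0.049, adjusted p = 0.0331, edgeR). The call was lost in 8 of 21 alternatives, at an adjusted p between 0.050 and 0.168. They include the fits without 0 µM replicates 3 (0.108) or 4 (0.091) and without 6 µM replicates 2 (0.066), 3 (0.097) or 4 (0.064).

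Etfdh had 76.2, 72.8, 77.1 and 72.0 CPM at 0 µM, 79.6, 82.7, 85.0 and 82.2 CPM at 2 µM and 84.9, 76.9, 88.2 and 84.4 CPM at 6 µM. The library of 6 µM replicate 2 lay within the range at 0 µM, while the 2 µM libraries lay above it. Etfdh was 1.12-fold higher at 6 than at 0 µM (log2 0.17, SE 0.051, adjusted p = 0.0455, edgeR). That call was lost in 14 of 21 alternatives. Among them are the fits without 0 µM replicates 2 (0.108), 3 (0.059) or 4 (0.096), without 2 µM replicates 1 (0.053), 2 (0.060) or 4 (0.059), and without 6 µM replicates 1 (0.108), 3 (0.141) or 4 (0.097). The gene 4930579G24Rik on the opposite strand held 29.5% as many counts as Etfdh, and its log2 fold change at 6 against 0 µM was -0.04 (adjusted p = 0.838). The level of Etfdh at 2 µM was 82.3 ± 2.22 CPM and that at 6 µM 83.6 ± 4.77 CPM, with a log2 fold change of 0.02 between them (adjusted p = 0.918). Etfb was counted at 3.91 ± 0.395, 3.64 ± 0.747 and 3.59 ± 0.686 CPM at 0, 2 and 6 µM, and the doses overlapped (log2 -0.13 at 6 against 0 µM, 95% interval -0.55 to 0.30). Per kilobase its level at 0 µM, 4.38 ± 0.443 CPM per kb, was far under that of its partner subunit Etfa. Genes that overlap Etfb on the same strand include Gm45233 with 0 counts and Gm44816 with 28 over all libraries. How shared reads were counted is not stated, so the gap between the subunits describes assigned reads only.

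**Figure D4:**
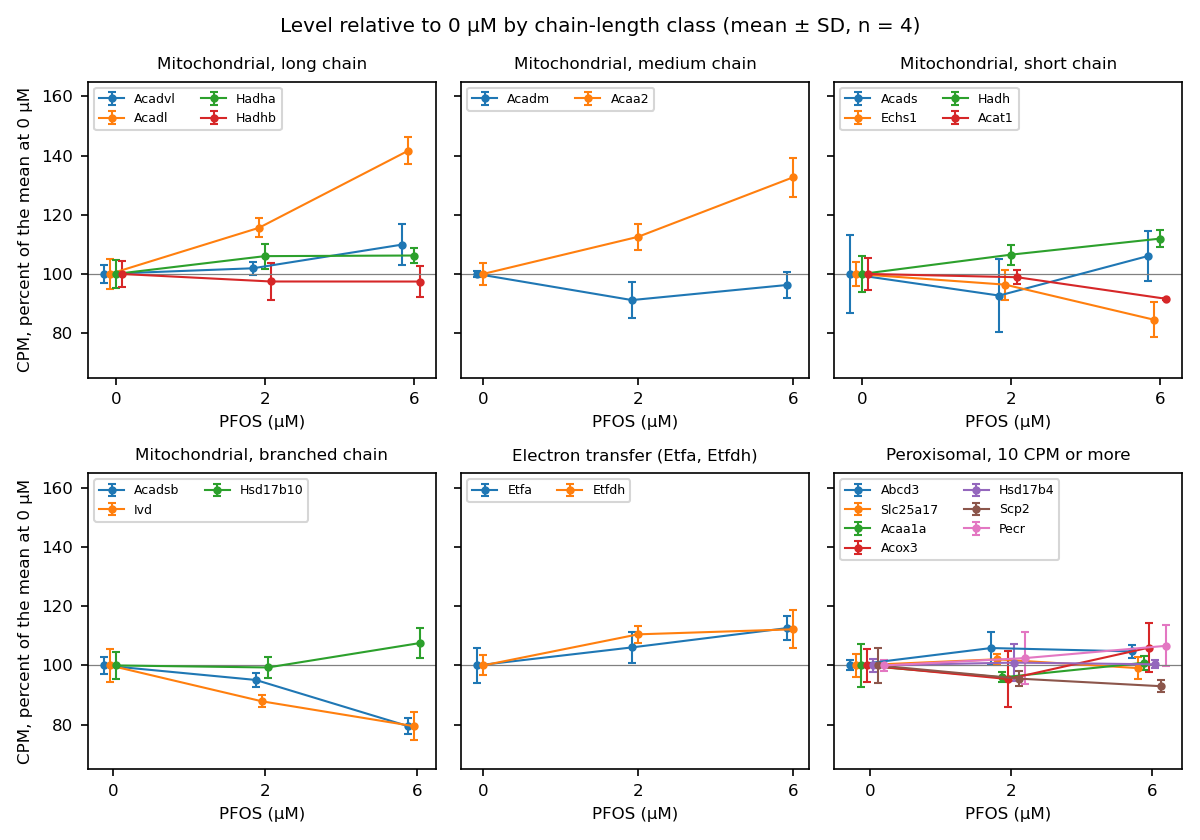
CPM of each gene as a percent of its mean at 0 µM, by chain-length class, with doses spaced evenly; points are means and bars SD of 4 libraries, and the panels of electron transfer and peroxisomal genes show those at 10 CPM or more. Acadl reached 142%, Acaa2 133%, Acadsb 79.5% and Ivd 79.5% of their level at 0 µM in the libraries at 6 µM, while the 7 peroxisomal genes stood between 93.0% and 107%.

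Among the auxiliary enzymes of unsaturated chains, Ech1 had the highest fold change of the genes called. Ech1 (ENSMUSG00000053898, chromosome 7, 28825217 to 28832247, plus strand, GRCm38) encodes a dienoyl-CoA isomerase that is placed in both mitochondria and peroxisomes. It had 63.5, 60.9, 59.6 and 53.1 CPM at 0 µM, 73.0, 68.2, 69.6 and 71.3 CPM at 2 µM and 93.0, 85.0, 94.9 and 95.8 CPM at 6 µM. The 3 doses did not overlap and rose in order. Ech1 was 1.19-fold higher at 2 than at 0 µM (log2 0.25, SE 0.058, adjusted p = 0.0221), 1.55-fold higher at 6 than at 0 µM (log2 0.64, SE 0.057, adjusted p = 2.11e-07) and 1.31-fold higher at 6 than at 2 µM (log2 0.39, SE 0.057, adjusted p = 0.00061; edgeR). The call at 2 against 0 µM was lost without 0 µM replicates 3 (adjusted p = 0.051) or 4 (0.064) and without 2 µM replicates 1 (0.061) or 4 (0.086), and the others held in every alternative.

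The other auxiliary genes were not called. Decr1, the mitochondrial dienoyl-CoA reductase, had 49.99 ± 1.34, 50.3 ± 4.54 and 52.2 ± 4.07 CPM at 0, 2 and 6 µM (log2 0.06 at 6 against 0 µM, adjusted p = 0.652, edgeR). Eci1, the mitochondrial enoyl-CoA isomerase, had 46.2 ± 2.01, 42.9 ± 2.31 and 45.2 ± 1.06 CPM (log2 -0.03, adjusted p = 0.816). The Ech1-to-Decr1 ratio at 6 µM was 1.498 ± 0.168 times its mean at 0 µM, without overlap of the libraries. Eci2, a second enoyl-CoA isomerase of uncertain place, had 44.8 ± 2.99, 46.4 ± 1.60 and 50.2 ± 1.11 CPM at 0, 2 and 6 µM. Its libraries at 6 µM all lay above those at the other doses, with a log2 fold change against 0 µM of 0.16 (adjusted p = 0.0905; 0.041 by DESeq2). Amacr, a racemase of branched chains, had 33.4 ± 1.52, 34.1 ± 2.89 and 33.0 ± 2.45 CPM, and its doses overlapped (log2 -0.02 at 6 against 0 µM, adjusted p = 0.93).

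The acyl-CoA dehydrogenase genes of other or unsettled substrates, Acad9, Acad10 and Acad11, were not called. Acad9, whose product also helps to assemble respiratory complex I, had 49.8 ± 1.99, 52.5 ± 1.71 and 54.7 ± 4.93 CPM at 0, 2 and 6 µM (log2 0.14 at 6 against 0 µM, adjusted p = 0.205, edgeR). Acad10 had 3.90 ± 0.431, 3.34 ± 0.665 and 3.52 ± 0.292 CPM (log2 -0.15, adjusted p = 0.688). Acad11 had 5.48, 7.39, 6.37 and 6.78 CPM at 0 µM, 6.35, 5.63, 7.36 and 6.78 CPM at 2 µM and 5.63, 4.24, 4.55 and 4.70 CPM at 6 µM. The library of 6 µM replicate 1 lay within the range at 0 µM. The gene's log2 fold change was -0.45 at 6 against 0 µM (SE 0.14, adjusted p = 0.0567) and -0.45 at 6 against 2 µM (SE 0.14, adjusted p = 0.148). Acad11 was called lower at 6 against 0 µM by DESeq2 (adjusted p = 0.0335) and in edgeR without 0 µM replicate 1 (0.031) or 6 µM replicate 1 (0.043). Gm28305, a gene that overlaps Acad11 on the same strand, held 0 counts, and how shared reads were counted is not stated.

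The peroxisomal genes were measured with unequal precision. The 7 at 10 CPM or more at 0 µM were the importer Abcd3, the carrier Slc25a17, the thiolase Acaa1a, the branched-chain oxidase Acox3, the D-bifunctional enzyme Hsd17b4, Scp2 and the reductase Pecr. At 6 against 0 µM their log2 fold changes ran between -0.11 and 0.09, their 95% intervals between -0.21 and 0.30, and the lowest adjusted p was 0.173 (edgeR). At 2 against 0 µM the values ran between -0.07 and 0.08 and the intervals between -0.28 and 0.23. At 6 against 0 µM the intervals of these 7 genes therefore leave out rises as large as those of Acadl, Acaa2 and Ech1 (log2 0.50, 0.41 and 0.64). They do not all leave out the smaller rises of Hadh, Etfa and Etfdh (log2 0.16, 0.17 and 0.17). The upper bounds of Acox3 and Pecr were 0.30 and 0.29. At 2 against 0 µM the upper bound of Pecr was 0.23, which does not leave out the rise of Acadl at that dose (log2 0.21). The other 5, Abcd2, Ehhadh, Phyh, Hacl1 and Decr2, stood under 10 CPM, with log2 fold changes between -0.31 and 0.55 at 6 against 0 µM and intervals between -0.82 and 1.75. The upper bounds were 1.75 for Ehhadh and 1.22 for Hacl1, so their intervals do not leave out a rise as large as that of Acadl. For Abcd2, Phyh and Decr2 the upper bounds were 0.10, 0.27 and 0.34.

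Hsd17b4, which carries out the hydration and second dehydrogenation of branched and very long chains, had 97.1 ± 2.27, 98.0 ± 5.94 and 97.4 ± 1.33 CPM at 0, 2 and 6 µM. Its log2 fold change at 6 against 0 µM was 0.01 (95% interval -0.10 to 0.11, adjusted p = 0.967, edgeR). Cd63-ps, a pseudogene on the same strand within it, held 45.2% as many counts. Abcd3 had 106 ± 1.79, 112 ± 5.64 and 111 ± 2.45 CPM (log2 0.07, 95% interval -0.03 to 0.17, adjusted p = 0.421). Acaa1a, the thiolase of straight chains, had 55.1 ± 4.06, 52.9 ± 0.914 and 55.6 ± 1.34 CPM (log2 0.01, 95% interval -0.12 to 0.14, adjusted p = 0.933), and Myd88 overlaps it on the opposite strand with 25.8% as many counts. In all 3 genes the libraries of 6 and 0 µM overlapped.

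Scp2 had 153, 161, 147 and 140.0 CPM at 0 µM, 139.6, 146, 147 and 141 CPM at 2 µM and 138, 138, 144 and 138 CPM at 6 µM. The doses overlapped, and the log2 fold change at 6 against 0 µM was -0.11 (SE 0.046, adjusted p = 0.173, edgeR). Counts per gene cannot separate the SCPx transcript from that of sterol carrier protein 2. Slc25a17 had 88.5 ± 3.45, 90.3 ± 1.61 and 87.7 ± 3.40 CPM (log2 -0.01, adjusted p = 0.908). Acox3 had 13.7 ± 0.765, 13.0 ± 1.28 and 14.5 ± 1.14 CPM (log2 0.08, adjusted p = 0.674). Pecr had 15.3 ± 0.303, 15.7 ± 1.35 and 16.3 ± 1.05 CPM (log2 0.09, adjusted p = 0.589), and a long noncoding RNA on the opposite strand, D230017M19Rik, held 71.8% as many counts.

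Ehhadh, a gene known for its strong induction by PPAR alpha agonists in rodent liver, was close to the lower end of detection here. It had 0.551, 0.325, 0.325 and 0.489 CPM at 0 µM, 1.31, 0.541, 0.527 and 0.421 CPM at 2 µM and 0.738, 0.406, 0.277 and 1.04 CPM at 6 µM, from 12 to 52 reads a library. The doses overlapped, and the log2 fold change at 6 against 0 µM was 0.55 with an SE of 0.53 (adjusted p = 0.611, edgeR). Abcd2 had 4.01, 3.21, 2.72 and 4.17 CPM at 0 µM, 4.22, 4.29, 3.81 and 4.34 CPM at 2 µM and 2.81, 2.42, 2.98 and 3.15 CPM at 6 µM. All libraries at 6 µM lay below those at 2 µM, with a log2 fold change of -0.55 (SE 0.18, adjusted p = 0.155), and those at 0 µM overlapped with both. Phyh, which starts alpha-oxidation of phytanic acid, had 7.05 ± 0.727, 6.10 ± 0.857 and 6.70 ± 1.42 CPM (log2 -0.07 at 6 against 0 µM, adjusted p = 0.834). Hacl1, a later enzyme of the same route, had 0.592 ± 0.241, 0.717 ± 0.258 and 0.679 ± 0.119 CPM (log2 0.20, adjusted p = 0.849). Btd, a biotinidase gene that overlaps Hacl1, held 15975 counts over the 12 libraries, against 329 for Hacl1. Gm49387, a gene that overlaps Hacl1 on the same strand, held 0 counts, and how shared reads were counted is not stated. Decr2, the peroxisomal dienoyl-CoA reductase, had 3.88 ± 0.443, 4.14 ± 0.872 and 3.71 ± 0.497 CPM (log2 -0.07, adjusted p = 0.877).

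By chain-length class, the long-chain mitochondrial genes had a median log2 fold change of 0.11 at 6 against 0 µM, with 1 of 4 higher. The medium-chain pair had 0.18, with 1 of 2 higher. The short-chain genes had -0.02, with 1 of 4 higher and 1 lower, and the branched-chain genes -0.33, with 2 of 3 lower. The electron transfer genes had 0.17, with 2 of 3 higher. Each class thus held at least 1 gene that was not called, and in the long-chain, medium-chain and short-chain classes the called genes differed in their step: the first dehydrogenation for Acadl, the second for Hadh, hydration for Echs1 and thiolysis for Acaa2. At 6 against 0 µM 4.58% of all tested genes were higher and 3.66% lower (edgeR), and the classes are too small to be set against these shares. The calls of Hadh, Etfa and Etfdh were lost in 8, 8 and 14 of 21 alternatives. The summed level of the long-chain genes was 417 ± 12.3, 444 ± 2.23 and 477 ± 13.3 CPM at 0, 2 and 6 µM, and that of the short-chain genes 472 ± 15.6, 470.1 ± 13.3 and 453 ± 6.72 CPM.

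Genes around the pathway were read from the same fit. Of 7 tested genes of the carnitine shuttle, which brings long acyl chains into mitochondria, 2 were higher and 0 lower at 6 against 0 µM (edgeR), against 4.58% of all genes higher. At an unadjusted p under 0.05 in edgeR 0 were lower, and DESeq2 and limma-voom also called 0 lower. Cpt1a, the rate-controlling palmitoyltransferase, had 86.0 ± 4.60, 124 ± 3.60 and 169 ± 9.02 CPM at 0, 2 and 6 µM (log2 0.98 at 6 against 0 µM, SE 0.049, adjusted p = 1.12e-11). It was the 1 gene of the list called at 2 against 0 µM (log2 0.53, adjusted p = 1.96e-06, edgeR). Slc25a20, the carnitine carrier of the inner membrane, had a log2 fold change of 0.58 (SE 0.13, adjusted p = 0.00845) and Cpt2, the inner palmitoyltransferase, 0.17 (SE 0.069, adjusted p = 0.14). Of 11 tested genes of acyl-CoA activation 2 were higher, Acss2 with 0.34 (adjusted p = 0.000117) and Acsl3 with 0.17 (adjusted p = 0.0244). None of these genes is among the 36. Cpt1a is also counted in the list of PPAR targets.

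Of 13 tested peroxisomal lipid genes outside the 36, 2 were higher and 1 lower at 6 against 0 µM (edgeR), against 4.58% of all genes higher and 3.66% lower. Cat, the catalase that removes hydrogen peroxide, was higher, with 63.2 ± 2.23, 71.2 ± 5.01 and 81.2 ± 2.14 CPM at 0, 2 and 6 µM (log2 0.36 at 6 against 0 µM, SE 0.055, adjusted p = 0.000165, edgeR). Of 17 peroxins, which build the organelle, 1 was higher at 6 against 0 µM, Pex11a, with a log2 fold change of 0.55 (SE 0.14, adjusted p = 0.0145, edgeR), and 1 of 17 is near the share of 4.58% over all genes. In the ketone body list 1 of 3 tested genes was lower at 6 against 0 µM (edgeR), where 3.66% of all genes were, and this was Oxct1, which activates acetoacetate, with 597 ± 25.6, 544 ± 18.3 and 482 ± 16.95 CPM (log2 -0.31, adjusted p = 2.54e-05).

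Downstream and regulatory genes gave the following counts at 6 against 0 µM. Of 17 tested genes of the tricarboxylic acid cycle, which consumes acetyl-CoA, edgeR called 0. At an unadjusted p under 0.05 in edgeR 2 were higher and 1 lower, and DESeq2 and limma-voom each called 1 higher and 1 lower. Of 13 regulators of mitochondrial biogenesis edgeR, DESeq2 and limma-voom called 0, with 1 lower at an unadjusted p under 0.05 in edgeR. Over all tested genes edgeR called 8.24% in either direction. For lists this short, 0 of 17 and 0 of 13 are near that share. Of 20 tested PPAR receptors and targets outside the 36, 12 were higher and 0 lower, where 4.58% of all genes were higher. This list was chosen with earlier results of these data known, so its count is not independent of them. DESeq2 and limma-voom, like an unadjusted p under 0.05 in edgeR, gave 0 lower. Those with the lowest adjusted p were Angptl4, an inhibitor of lipoprotein lipase, with a log2 fold change of 4.42 (SE 0.071, adjusted p = 8.54e-22) and Pdk4, a kinase that restrains pyruvate oxidation, with 1.43 (SE 0.060, adjusted p = 3.84e-13). At 2 against 0 µM 7 of the 20 were higher and 1 lower by edgeR, where 1.61% and 0.742% of all genes were. DESeq2 and limma-voom each also called 1 lower in that comparison. Pparg had 16.01 ± 1.62, 20.1 ± 1.34 and 21.4 ± 1.26 CPM at 0, 2 and 6 µM (log2 0.42 at 6 against 0 µM, adjusted p = 0.00336, edgeR). Ppard had 86.4 ± 10.2, 91.9 ± 1.90 and 97.9 ± 7.27 CPM (log2 0.18, adjusted p = 0.113), and Ppara 0.247 ± 0.188, 0.415 ± 0.238 and 0.354 ± 0.156 CPM (log2 0.48, SE 0.67, adjusted p = 0.74).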

How the data were processed

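The authors deposited 1 table of raw read counts per gene for 12 libraries of messenger RNA. HISAT2 and the build GRCm39 are named in the submitters' processing notes, and neither source nor label names the HISAT2 version, the counting program, its strand setting or any filter. The table's coordinates match GENCODE M21 (GRCm38) for 53585 of 54495 shared genes (98.3%) and 33 of 36 members, so positions are given as GRCm38. Samples were grouped by the dose in their titles.

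From the counts, edgeR 4.0.16 in R 4.3.3 computed TMM-scaled CPM and tested each dose pair with its quasi-likelihood test, in 1 fit of a mean per dose over 12 libraries (9 residual degrees of freedom). Genes passed filterByExpr (16038 tested, 38494 left out), and p-values were adjusted by Benjamini-Hochberg over all genes tested, with calls at 0.05. Standard errors were derived from the F statistic, and 95% intervals from them with 9 degrees of freedom. These intervals can be wider than the test implies. For Acad9 at 6 against 0 µM the interval was -0.0054 to 0.28 at an unadjusted p of 0.041 (edgeR). Levels per kilobase used the APPRIS principal transcript of GENCODE M21. Library totals of 30206155 to 50351082 counts gave a common biological coefficient of variation of 10.8%; intervals cover the spread between libraries only. The procedure was tested on simulated data.

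Alternatives were RLE and upper-quartile scaling, other count filters, DESeq2 1.42.0, limma-voom 3.58.1, a replicate block, only the doses compared, each library left out and the 3 deviating libraries left out. The replicates differed by more than sampling noise, so none was merged. The members and lists were chosen with earlier results of these data known. All 36 genes are described; of each list the 2 called genes with the lowest adjusted p at 6 against 0 µM are named, with the PPAR genes and Cpt1a, Cpt2 and Slc25a20 in any case. Of the list of other peroxisomal lipid genes the counts and Cat are given; its other called genes are not reported here. Promoter windows are RefSeq's for GRCm38.p6.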

Additional observations from a re-analysis of the deposited data

Results flagged for a closer look

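In 7 of 108 groups of 4 libraries, 1 library lay far from the other 3 (its gap to them above Dixon's 95% critical share of the whole range); chance flags about 1 in 20 groups. Echs1 had 121.2 CPM in 0 µM replicate 4, below 130.95 to 132.7 CPM in the other 3 libraries at 0 µM. Acad9 had 62.1 CPM in 6 µM replicate 2, above 51.5 to 52.7 CPM in the others. Decr1 had 43.5 CPM in 2 µM replicate 3, below 52.2 to 53.1 CPM. Slc25a17 had 83.3 CPM in 0 µM replicate 4, below 89.8 to 90.7 CPM. Ehhadh, which was counted at 12 to 52 reads a library, had 1.31 CPM in 2 µM replicate 1, above 0.421 to 0.541 CPM. Acaa1a had 57.6 CPM in 6 µM replicate 1, above 54.7 to 55.03 CPM, and Scp2 had 144 CPM in 6 µM replicate 3, above 137.9 to 138.1 CPM. Among these genes only Echs1 was called in any comparison, and its call at 6 against 0 µM held without 0 µM replicate 4.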

How the results depend on the processing

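Of 15 calls among the 36 genes, 9 held in each of 21 alternatives and 6 were lost in at least 1; 0 changed sign. Those that held are Acadl, Acaa2, Ech1, Echs1, Acadsb and Ivd at 6 against 0 µM and Acadl, Ech1 and Acadsb at 6 against 2 µM. At 6 against 0 µM the count of higher members was 3 with upper-quartile scaling and 3 without the 3 deviating libraries (against 6 in the report), and 5 were lower by DESeq2. DESeq2 also called 1 member lower at 2 against 0 µM and 2 lower at 6 against 2 µM, where no count filter gave 2 as well. Leaving out single libraries gave 0 to 3 members higher and 0 to 1 lower at 2 against 0 µM, 3 to 6 higher and 3 to 4 lower at 6 against 0 µM, and 2 to 3 higher and 1 to 2 lower at 6 against 2 µM. The median of the peroxisomal genes at 2 against 0 µM then ran between 0.0103 and 0.0512. Over all genes at 2 against 0 µM, no count filter gave 438 higher and 193 lower, DESeq2 524 and 227, and single libraries left out 72 to 322 and 34 to 168. Without the 3 deviating libraries 408 were higher and 302 lower at 6 against 0 µM, and single libraries left out gave 513 to 789 and 398 to 592. At 6 against 2 µM, no count filter gave 177 higher and 224 lower, DESeq2 229 and 216, only the doses compared 174 and 133, and single libraries left out 45 to 138 and 33 to 121; without the 3 deviating libraries 55 were lower. Same-numbered replicates did not deviate together (r between -0.028 and 0.037 over 12 pairs, 0 above 0.1; 5 of 12 libraries correlated best with their own number). With the replicate number as a block, 4 members were higher and 3 lower at 6 against 0 µM, and over all genes 192 and 81, 648 and 506, and 69 and 54 were higher and lower at 2 against 0, 6 against 0 and 6 against 2 µM. The median over all genes stayed within 0.029 of 0 on the log2 scale in each alternative. The causes of these differences were not tested. Low counts limit the precision for the genes under 10 CPM, above all Ehhadh and Hacl1.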
